A study of Rattus norvegicus with 16 samples.

Results

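The 10 genes described here belong to the unfolded protein response and the integrated stress response: Atf4, Ppp1r15a, Ddit3, Trib3, Chac1, Sesn2, Asns, Hspa5, Xbp1 and Herpud1. They were chosen by gene symbol, as the genes with a probe set that carries that symbol and no other. The list of genes was drawn up with earlier results of these data known. All 10 were measured, by 13 of the 31099 probe sets and among 14218 genes in all. Trib3 had 3 probe sets, Sesn2 had 2 and the others 1 each.

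Male Wistar rats of 8 weeks had a craniectomy over the right parietal cortex. The injured rats received, 48 h after it, a moderate lateral fluid percussion of 3.3 ± 0.3 atm, a pulse of fluid against the dura that bruises the cortex beneath. The sham rats had the craniectomy, the adapter and both anaesthesias, but no pulse, so all groups share the surgery, though not the time since it. Saline was perfused through the heart, and polyA RNA came from the lateral cortex at the site of the contusion, 3, 6, 12 or 48 h after the procedure. Each of the 4 injured groups had 3 arrays, and there was 1 sham array at each time, 16 arrays in all. The shams of 3, 6 and 12 h serve together as the control for the first 3 times, as in the study's design, and are called the early shams. The study set the 48 h sham apart from them and used it as the control at 48 h, and with a single array it has no spread of its own. Each array carries an animal code of its own in the labels. They do not say which samples were prepared on the same day, so p-values measure the spread between these arrays.

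Values are log intensities taken as log2, with the median of each probe set over the 16 arrays set to 0. A value of 0.5 thus means about 0.5 log2 units above that gene's middle array. Nothing in these values tells how strongly a gene was expressed, whether it was above background, or which of a pair of genes was the more abundant, and the presence of the marker genes of cortex cannot be checked either. The arrays held 12 neuronal marker genes, of which 2 were lower at 12 h and 3 at 48 h than in the early shams. By the same test 1.38% of all genes were lower at 12 h and 3.32% at 48 h. In bulk tissue, fewer cells of a type and less RNA per cell cannot be told apart. Injured 12 h replicate 2 and injured 48 h replicate 2 stood apart from the rest by a wider spread over all probe sets (SD 0.35 in both, with 0.191 the smallest). In that 12 h array the 27 probe sets for the polyA spike-in controls averaged -1.50, against -0.16 to 0.44 in the others.

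Cells answer misfolded protein in the endoplasmic reticulum (ER) through sensors in its membrane. Perk, like other kinases that respond to amino acid shortage, viral RNA or lack of haem, phosphorylates the initiation factor eIF2. General protein synthesis then falls, while the transcription factor Atf4 is translated more and switches on genes for amino acid supply, redox balance and, in prolonged stress, cell death. The sensors Ire1 and Atf6 act through spliced Xbp1 and cleaved Atf6, which raise chaperones such as Hspa5 and the machinery that removes misfolded proteins. Both arms are known to respond to brain injury and ischaemia. Arrays of this kind measure mRNA only, so eIF2 phosphorylation, Atf4 protein and the splicing of Xbp1 were not measured. Here 7 genes that depend mainly on Atf4 (Atf4, Ppp1r15a, Ddit3, Trib3, Chac1, Sesn2, Asns) are called the Atf4 branch. The other 3 (Hspa5, Xbp1, Herpud1) are called the Hspa5/Xbp1 branch.

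Atf4 and Ppp1r15a mRNA were higher after injury, and passed the test as higher only at 12 h. Similar differences came earlier without passing. The log2 difference of Ppp1r15a from the early shams was 1.11 at 3 h, 1.03 at 6 h and 0.98 at 12 h. That of Atf4 was 0.14, 0.41 and 0.42 at these times. The adjustment takes in all genes tested, of which 83, 379 and 692 were called at these times. Both genes then fell. At 48 h Ppp1r15a was near the early shams (0.12), and Atf4 was called lower than them (-0.40). The other 8 genes passed the test in no comparison with shams and in no step between times. Differences are given as log2 ± standard error from a limma fit over all genes, 3 injured arrays against the 3 early shams unless another control is named. A gene was called where its Benjamini-Hochberg adjusted p was under 0.05. At 3 h none of the 10 was called by limma, while 0.485% of all genes were called higher and 0.0985% lower. At that time 1 of the 10 had an unadjusted p under 0.05, as did 1358 of all 14218 genes. At 6 h again none was called, against 1.98% of all genes higher and 0.682% lower. Here 4 of the 10 had an unadjusted p under 0.05, as did 2029 of all genes. At 12 h, Atf4 and Ppp1r15a were called higher, 2 of 10, against 3.49% of all genes higher and 1.38% lower. At that time 4 of the 10 had an unadjusted p under 0.05, as did 2910 of all genes. At 48 h against the early shams, Atf4 was called lower, 1 of 10, against 3.32% of all genes lower and 6.37% higher. In that comparison 6 of the 10, in both directions, had an unadjusted p under 0.05, as did 3603 of all genes. Against the 48 h sham, 0% of all genes were called by limma, although 1061 genes, and of the 10 only Atf4, had an unadjusted p under 0.05. The median difference of the 10 from the early shams was 0.11 at 3 h, 0.16 at 6 h, 0.18 at 12 h and 0.01 at 48 h, where the median of all genes was between -0.02 and -0.01. Several genes missed the threshold with groups that did not overlap. The injured arrays lay wholly above or wholly below the early shams for 4 of the 10 at 3 h, 6 at 6 h, 5 at 12 h and 5 at 48 h, against 17.8%, 23.7%, 21.5% and 29.5% of all genes. These 4 comparisons share the same 3 sham arrays.

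**Figure D1:**
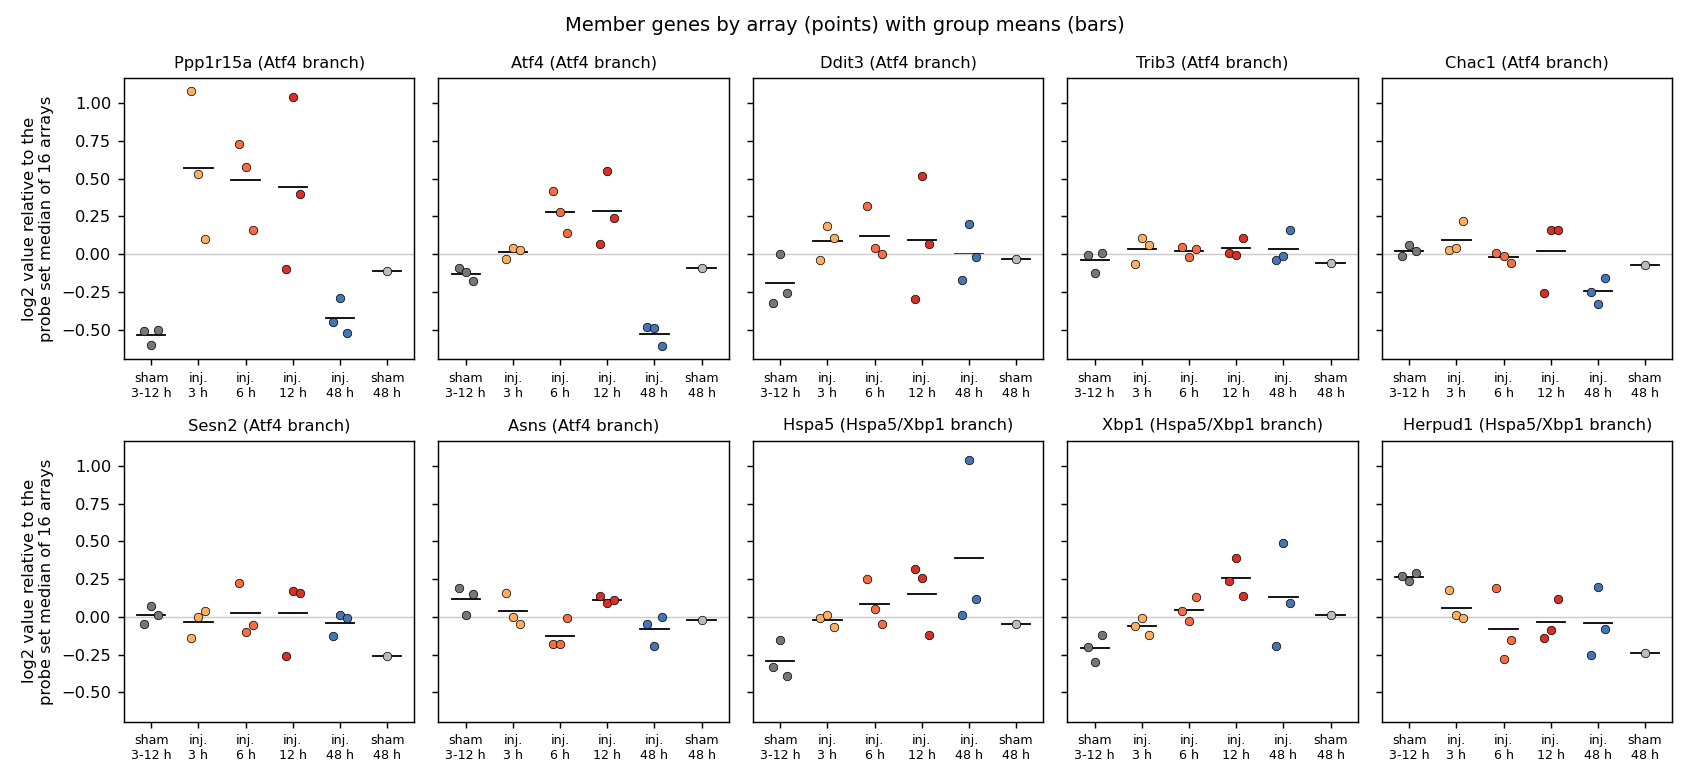
Values of the 10 genes by array, as log2 relative to the median of the probe set over 16 arrays (vertical axis), in the early shams (3 to 12 h), the injured groups and the 48 h sham (horizontal axis); points are arrays and bars are group means. Ppp1r15a and Atf4 lie highest between 3 and 12 h after injury and low at 48 h, and 1 array at 48 h carries the highest Hspa5 value, 1.04.

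Ppp1r15a, also called Gadd34, encodes the regulatory subunit that brings protein phosphatase 1 to eIF2 and so reverses its phosphorylation, closing the loop of the stress response. The gene lies on rat chromosome 1 (chr1:105136521-105139596 of GRCr8). Its values at 3 h were 1.08, 0.53 and 0.10 in the injured arrays. At 6 h they were 0.73, 0.58 and 0.16. At 12 h they were -0.10, 1.04 and 0.40. At 48 h they were -0.45, -0.29 and -0.52. The early shams had -0.51 (3 h), -0.60 (6 h) and -0.50 (12 h), and the 48 h sham had -0.11. Every injured array of 3 to 12 h thus lay above every early sham, by amounts that varied widely within each time. At 48 h 1 of the 3 arrays lay among the early shams and the other 2 slightly above them. The 48 h sham sat higher than the other 3 shams and level with the lowest injured 12 h array.

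The differences of Ppp1r15a from the early shams were the largest of the 10 genes at 3, 6 and 12 h. They were 1.11 ± 0.26 at 3 h (2.15-fold, limma adjusted p = 0.099), 1.03 ± 0.26 at 6 h (adjusted p = 0.0535) and 0.98 ± 0.26 at 12 h (1.98-fold, adjusted p = 0.0466). Of these only the 12 h value passed the threshold, with 3 of 3 injured arrays higher. At 48 h the difference was 0.12 ± 0.26 (adjusted p = 0.83) from the early shams and -0.31 ± 0.37 (adjusted p = 0.904) from the 48 h sham. From 12 to 48 h in injured cortex Ppp1r15a fell by 0.87 ± 0.26 (adjusted p = 0.0389), and it was 1 of 2 genes of the 10 called lower in that step, against 7.14% of all genes lower and 8.19% higher. Both of its calls were lost when single arrays were left out. The 12 h call was lost without injured 12 h replicate 2 (0.69, adjusted p = 0.198), without replicate 3 (adjusted p = 0.0567) and without the 3 h, 6 h or 12 h sham (adjusted p = 0.119, 0.143 and 0.0908). The fall from 12 to 48 h was lost without injured 12 h replicate 2 (-0.57, adjusted p = 0.145) or replicate 3 (adjusted p = 0.0711), and without injured 48 h replicate 1, 2 or 3 (adjusted p = 0.0962, 0.0681 and 0.0857). With quantile normalization the call moved in time: Ppp1r15a was called higher at 3 h (1.24, adjusted p = 0.0261) and 6 h (1.03, adjusted p = 0.0243) but not at 12 h (0.81, adjusted p = 0.081). That normalization was applied to the deposited centred values. It thus gave every array the same spread and narrowed the arrays of wide spread, so calls that it adds or moves depend on that step.

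The promoter of Ppp1r15a is shown because it was the member with the largest early change and holds a full cAMP response element, the palindrome bound by Creb and Atf family factors. The sequence is 200 bases before the gene's start in RefSeq (GRCr8, chr1:105139597-105139796, minus strand, 5′ to 3′), with the element in capitals, 66 to 59 bases before the start.
Ppp1r15a promoter: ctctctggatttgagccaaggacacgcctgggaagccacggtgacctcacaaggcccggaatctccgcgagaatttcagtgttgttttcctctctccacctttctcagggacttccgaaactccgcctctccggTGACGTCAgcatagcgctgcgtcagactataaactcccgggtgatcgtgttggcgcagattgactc
In windows of 250 bases before to 50 after each of 33469 gene starts in the RefSeq table, searched on both strands, TGACGTCA occurred in 1.83% (612). Promoters of all 10 genes were in the table, and Ppp1r15a was the only one of them with this match. A match describes letters and is not evidence of binding.

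Atf4 encodes the transcription factor at the centre of the integrated stress response. Its activity is set largely by translation of its mRNA, so the mRNA values below need not follow the protein. The gene lies at chr7:113684681-113686739. At 3 h its values were -0.03, 0.04 and 0.03 in the injured arrays, at 6 h 0.42, 0.28 and 0.14, and at 12 h 0.07, 0.55 and 0.24. At 48 h they were -0.48, -0.49 and -0.61. The early shams had -0.09, -0.12 and -0.18 and the 48 h sham -0.09. The injured arrays of 3, 6 and 12 h all lay above all 4 shams, and the 3 arrays of 48 h lay close together below every other array.

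The difference of Atf4 from the early shams was 0.14 ± 0.11 at 3 h (adjusted p = 0.751) and 0.41 ± 0.11 at 6 h (adjusted p = 0.0577). At 12 h it was 0.42 ± 0.11 (1.335-fold, adjusted p = 0.0379), which was called, with 3 of 3 injured arrays higher. At 48 h Atf4 was lower than in the early shams by -0.40 ± 0.11 (adjusted p = 0.0315), with 3 of 3 injured arrays lower. Against the 48 h sham the difference was almost as large, -0.44 ± 0.15, but did not pass (adjusted p = 0.508), in a comparison where no gene did. Against all 4 shams together it was -0.41 (adjusted p = 0.0217).

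The step from 12 to 48 h in injured cortex gave the smallest adjusted p of the 10 genes in the 8 comparisons. Atf4 fell by 0.81 ± 0.11 (1.76-fold, adjusted p = 0.000425), rank 84 by p among 14218 genes, and the 2 groups of arrays did not overlap. It was called in 12 of 12 alternative fits, with adjusted p between 0.000237 and 0.0355. Without both arrays of wide spread the fall was -0.70 (adjusted p = 0.00179). Steps from 3 to 6 h (0.27 ± 0.11, adjusted p = 0.258) and from 6 to 12 h (0.01 ± 0.11, adjusted p = 0.991) were not called. In those steps 0 of the 10 genes were called, against 1.2% and 0.0141% of all genes in either direction. In each step 1 of the 10 had an unadjusted p under 0.05, as did 2094 and 1249 of all 14218 genes.

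The comparisons of Atf4 with shams were less firm than that step. The 12 h call was lost without injured 12 h replicate 2 (0.285, adjusted p = 0.142) and without the 3 h, 6 h or 12 h sham (adjusted p = 0.0858, 0.109 and 0.0994). At 48 h the call against the early shams was lost without any 1 of the 3 injured 48 h arrays (adjusted p = 0.0675, 0.0863 and 0.0655 without replicates 1, 2 and 3) or the 3 early shams (adjusted p = 0.0868, 0.0932 and 0.067 without the 3, 6 and 12 h sham), with values from -0.42 to -0.355. The 6 h difference passed with quantile normalization (0.47, adjusted p = 0.00623) and with all 4 shams as control (0.40, adjusted p = 0.0336).

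**Figure D2:**
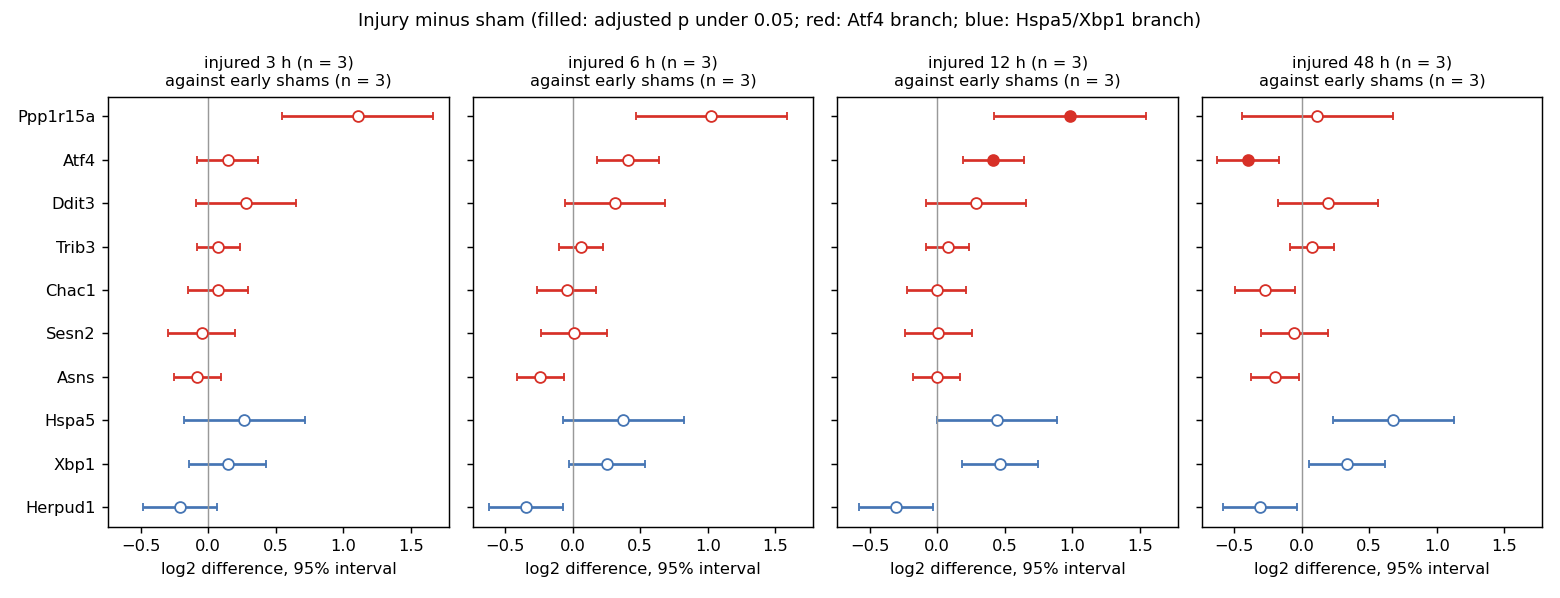
Log2 differences between injured cortex (3 arrays) and the early shams (3 arrays) for the 10 genes at 3, 6, 12 and 48 h (horizontal axes), with 95% intervals; filled points have a limma adjusted p under 0.05, red marks the Atf4 branch and blue the Hspa5/Xbp1 branch. Ppp1r15a lies near 1 at 3, 6 and 12 h, Atf4 turns from 0.42 at 12 h to -0.40 at 48 h, and Herpud1 lies below 0 throughout.

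The remaining 5 genes of the Atf4 branch did not pass the test in any of the 8 comparisons. Ddit3 encodes Chop, the transcription factor that Atf4 induces and that promotes cell death in prolonged ER stress (chr7:65001695-65006517). Its values were -0.04, 0.19 and 0.11 at 3 h, 0.32, 0.04 and 0.00 at 6 h, -0.30, 0.52 and 0.07 at 12 h, and -0.17, 0.20 and -0.02 at 48 h. The early shams had -0.32, 0.00 and -0.26, and the 48 h sham -0.03. Injured and sham arrays overlapped at every time, and the 12 h group alone spanned nearly the whole range. The difference from the early shams was 0.28 ± 0.17 at 3 h, 0.31 ± 0.17 at 6 h, 0.29 ± 0.17 at 12 h and 0.20 ± 0.17 at 48 h, with adjusted p between 0.375 and 0.681. The 95% interval at 12 h ran from -0.08 to 0.66, which includes a difference as large as that of Atf4 at 12 h.

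Asns encodes asparagine synthetase, an amino acid enzyme and a classical Atf4 target (chr4:36752061-36769970). At 6 h its values were -0.18, -0.18 and -0.01, against 0.19, 0.01 and 0.15 in the early shams, so the injured arrays lay below the shams. At 12 h they were back at 0.14, 0.09 and 0.11, among the shams. The difference was -0.24 ± 0.08 at 6 h (adjusted p = 0.165), -0.003 ± 0.08 at 12 h (adjusted p = 0.987) and -0.20 ± 0.08 at 48 h (adjusted p = 0.147). Asns was thus the only gene of the branch with its lowest mean of all injured and sham groups at 6 h. Atf4 was then 0.41 above the early shams. Among the injured groups alone, Trib3 also had its lowest mean at 6 h (0.02, against 0.04 at the other times).

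Chac1 encodes an enzyme that degrades glutathione and is induced by Atf4 and Chop (chr3:126796131-126799352). Its 48 h values were -0.25, -0.33 and -0.16, below the early shams at -0.01, 0.06 and 0.02 and the 48 h sham at -0.07. The difference from the early shams was -0.27 ± 0.10 (adjusted p = 0.114) at 48 h and between -0.04 and 0.07 at the earlier times. From 12 to 48 h it was -0.27 ± 0.10 (adjusted p = 0.0945). Injured 12 h replicate 1, at -0.26, was the only earlier injured array as low as those of 48 h, and without it the step was called (-0.41, adjusted p = 0.00491).

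Trib3 encodes a pseudokinase that Chop induces and that restrains Atf4 activity (chr3:161269939-161275533), and Sesn2 encodes sestrin 2, which dampens the growth kinase mTORC1 when amino acids are short (chr5:149986304-150005255). Trib3, as the mean of its 3 probe sets, moved least of the 10, from -0.12 to 0.16 over the 16 arrays. Its difference from the early shams was 0.06 to 0.08 at the 4 times (SE 0.07). Averaging can narrow such a range: 1 of these probe sets ran from -0.19 to 0.47, and the single probe set of Asns from -0.19 to 0.19. Sesn2 ranged from -0.26 to 0.225, and its differences from the early shams lay between -0.05 and 0.01 (SE 0.12). The lowest Sesn2 values were those of injured 12 h replicate 1 and the 48 h sham, both -0.26. Probe sets of these genes did not move together. In injured 48 h replicate 3 the 3 probe sets of Trib3 gave 0.07, 0.47 and -0.06, and in injured 6 h replicate 1 the 2 of Sesn2 gave 0.45 and 0.00. Since signal above background cannot be read from these values, such small movement does not show that the transcripts were present and steady.

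Of the Atf4 branch, Trib3 and Chac1 hold the composite element for C/EBP and Atf4 dimers, searched as TGATGNAA on both strands. In both it lies on the opposite strand, 21 to 14 bases before the start of Trib3 and 167 to 160 before that of Chac1. This motif occurred in 3.98% of the 33469 windows. Atf4, Ddit3, Sesn2 and Asns held none of the 5 motifs searched in this window. The start used for Asns lies within the span listed for the gene, so its window is not the sequence before that span.

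The Hspa5/Xbp1 branch had no called gene in any comparison. The group means of Hspa5 and Xbp1 lay above that of the early shams at all 4 times, and those of Herpud1 below it. At 6 h 1 of these 3 genes had an unadjusted limma p under 0.05 against the early shams. At 12 h 2 did and at 48 h 3, as did 2029, 2910 and 3603 of all 14218 genes at these times. Against the 48 h sham 0 of the 3 did. Hspa5 encodes BiP, the main chaperone of the ER lumen and the protein that holds the sensors inactive until misfolded protein draws it away (chr3:38453016-38457475). Its values at 3 h were -0.01, 0.01 and -0.07, at 6 h 0.25, 0.05 and -0.05, and at 12 h 0.32, 0.26 and -0.12. At 48 h they were 0.01, 1.04 and 0.12. The early shams had -0.33, -0.15 and -0.39, and the 48 h sham had -0.05. All 12 injured arrays lay above the 3 early shams, but the 48 h sham lay among the injured arrays of 3 and 6 h, and injured 48 h replicate 2 lay far above every other array.

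The difference of Hspa5 from the early shams was 0.27 ± 0.21 at 3 h (adjusted p = 0.769), 0.37 ± 0.21 at 6 h (adjusted p = 0.457) and 0.44 ± 0.21 at 12 h (adjusted p = 0.249). At 48 h it was 0.68 ± 0.21 (1.60-fold, adjusted p = 0.0552), and 0.44 ± 0.29 against the 48 h sham (adjusted p = 0.787). The 48 h value depended on a single array. Without injured 48 h replicate 2 it was 0.355 (adjusted p = 0.164), whereas without replicate 1 (0.87, adjusted p = 0.0325) or replicate 3 (0.815, adjusted p = 0.0294) it passed. It also passed with quantile normalization (0.52, adjusted p = 0.0335).

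Xbp1 encodes the transcription factor whose mRNA Ire1 splices in ER stress, and its gene is itself raised by Atf6 (chr14:84604623-84609707). At 3 h its values were -0.06, -0.01 and -0.12, at 6 h 0.04, -0.03 and 0.13, and at 12 h 0.24, 0.39 and 0.14. At 48 h they were -0.19, 0.49 and 0.09. The early shams had -0.20, -0.30 and -0.12 and the 48 h sham 0.01. The injured arrays of 6 and 12 h lay above the early shams, those of 12 h above all 4 shams, and those of 3 and 48 h overlapped the early shams.

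At 12 h Xbp1 differed from the early shams by 0.46 ± 0.13 (1.38-fold, adjusted p = 0.0611), about as much as Atf4 did (0.42 ± 0.11), but with a wider error. The call was gained without injured 12 h replicate 3 (0.52, adjusted p = 0.0453) and with quantile normalization (0.44, adjusted p = 0.0256). The difference was 0.14 ± 0.13 at 3 h (adjusted p = 0.814), 0.25 ± 0.13 at 6 h (adjusted p = 0.413) and 0.34 ± 0.13 at 48 h (adjusted p = 0.125). At 48 h it was 0.16 without injured 48 h replicate 2 (adjusted p = 0.476), and 0.50 without replicate 1 (adjusted p = 0.0271), which was called. The probe set counts both the spliced and the unspliced form or 1 of them; which was not given in the sources used here.

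Herpud1 encodes a membrane protein of ER-associated degradation, the disposal of misfolded ER proteins through the proteasome, and is raised by Atf6, Xbp1 and Atf4 (chr19:10604360-10624168). Its values were 0.18, 0.01 and -0.01 at 3 h, 0.19, -0.28 and -0.15 at 6 h, -0.14, -0.09 and 0.12 at 12 h, and -0.25, 0.20 and -0.08 at 48 h. The early shams had 0.27, 0.24 and 0.29, higher than all 12 injured arrays, whereas the 48 h sham had -0.24. The difference from the early shams was -0.21 ± 0.13 at 3 h (adjusted p = 0.685), -0.35 ± 0.13 at 6 h (adjusted p = 0.211), -0.30 ± 0.13 at 12 h (adjusted p = 0.199) and -0.31 ± 0.13 at 48 h (adjusted p = 0.146). Against the 48 h sham it had the other sign, 0.20 ± 0.18 (adjusted p = 0.859). The sign of the Herpud1 difference at 48 h is thus set by which sham is the control.

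The promoters of this branch are shown because all 3 hold an ER stress element, the site at which Atf6 and the factor NF-Y act on chaperone genes, close to the start. They are 200 bases before each start in RefSeq (GRCr8), 5′ to 3′, with motif matches in capitals. Hspa5 (chr3:38452816-38453015, plus strand) and Xbp1 (chr14:84604423-84604622, plus strand) hold the classical form, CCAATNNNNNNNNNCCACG, 43 to 25 and 65 to 47 bases before the start. Herpud1 (chr19:10614708-10614907, minus strand) holds the second form, ATTGGNCCACG, 124 to 114 bases before the start, and upstream of it, 184 to 177 bases before the start, the composite C/EBP and Atf element on the opposite strand. The start used for Herpud1 lies within the span listed for the gene.
Hspa5 promoter: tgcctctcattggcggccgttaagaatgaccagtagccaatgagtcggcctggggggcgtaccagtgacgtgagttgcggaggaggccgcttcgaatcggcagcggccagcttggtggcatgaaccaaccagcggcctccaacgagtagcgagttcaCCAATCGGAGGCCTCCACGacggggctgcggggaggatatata
Xbp1 promoter: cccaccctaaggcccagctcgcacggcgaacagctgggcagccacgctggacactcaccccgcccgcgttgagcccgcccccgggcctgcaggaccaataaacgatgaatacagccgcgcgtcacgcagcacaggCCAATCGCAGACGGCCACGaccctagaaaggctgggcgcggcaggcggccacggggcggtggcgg
Herpud1 promoter: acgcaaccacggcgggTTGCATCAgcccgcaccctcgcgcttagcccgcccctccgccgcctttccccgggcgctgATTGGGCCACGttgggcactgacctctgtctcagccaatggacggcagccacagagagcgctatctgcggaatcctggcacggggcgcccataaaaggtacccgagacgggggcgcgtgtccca
The classical form occurred in 22 of the 33469 windows (0.0657%) and the second form in 17 (0.0508%). None of these matches overlapped another. The core of the Xbp1 element, TGACGTGG, was found in 0.595% of windows and in none of the 10 genes. Hspa5 and Xbp1 had the highest correlation of the 45 pairs among the 10 genes (Pearson r = 0.79 over 16 arrays). Herpud1 had r = -0.09 with Hspa5 and -0.16 with Xbp1. These correlations are descriptions over arrays that share groups, and whether the elements bear on them was not tested. In injured 48 h replicate 2 both Hspa5 and Xbp1 had their highest value.

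Among the other pairs, Atf4 and Ppp1r15a had r = 0.75, Ddit3 and Sesn2 0.65, Ddit3 and Ppp1r15a 0.64, and Atf4 and Chac1 0.63. The lowest values were those of Hspa5 with Chac1 (-0.55) and with Asns (-0.54). Atf4 had r = -0.13 with Hspa5 and 0.17 with Xbp1.

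The mean of each branch was taken in every array, relative to its mean in the early shams, to set both arms side by side. These means describe genes picked for their roles with earlier results of these data known, so no test was made of them. The Atf4 branch averaged 0.22 ± 0.04 (SD, n = 3) at 3 h, 0.22 ± 0.10 at 6 h, 0.25 ± 0.23 at 12 h and -0.08 ± 0.04 at 48 h. The Hspa5/Xbp1 branch averaged 0.07 ± 0.05, 0.09 ± 0.13, 0.20 ± 0.07 and 0.24 ± 0.37 at these times. The Atf4 branch lay below the early shams in all 3 arrays of 48 h, whereas the mean of the Hspa5/Xbp1 branch at 48 h rested on injured 48 h replicate 2 and was 0.03 without it. The early means of the Atf4 branch rested largely on Ppp1r15a: without it they were 0.07 ± 0.05 at 3 h, 0.09 ± 0.08 at 6 h and 0.13 ± 0.18 at 12 h. At 12 h the mean of all 7 genes was 0.15 without injured 12 h replicate 2 and 0.38 without replicate 1. In the 48 h sham the branch means were 0.02 and -0.02.

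In each array the difference of the branches, Atf4 minus Hspa5/Xbp1, was 0.14, 0.16 and 0.17 at 3 h, 0.09, 0.20 and 0.08 at 6 h, and -0.21, 0.20 and 0.16 at 12 h. At 48 h it was -0.05, -0.70 and -0.18. All injured arrays of 3 and 6 h, and 2 of 3 at 12 h, thus had a positive difference, and all 3 at 48 h a negative one. Without injured 48 h replicate 2 the 48 h mean was -0.11 in place of -0.31 ± 0.35. The 12 h mean, 0.05 ± 0.23, ranged from -0.02 to 0.18 when arrays were left out in turn, and it was 0.18 without replicate 1.

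The positive early difference rested on Ppp1r15a and Herpud1. Without Ppp1r15a the difference was 0.006 at 3 h, -0.008 at 6 h and -0.07 at 12 h, and without Herpud1 it was 0.017 at 3 h, -0.094 at 6 h and -0.20 at 12 h. With the median over members in place of the mean it was -0.096 at 3 h, -0.11 at 6 h and -0.27 at 12 h. At 3 h the sign thus changed with the median and with no change of genes, and at 6 and 12 h it changed with the median and without either gene.

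**Figure D3:**
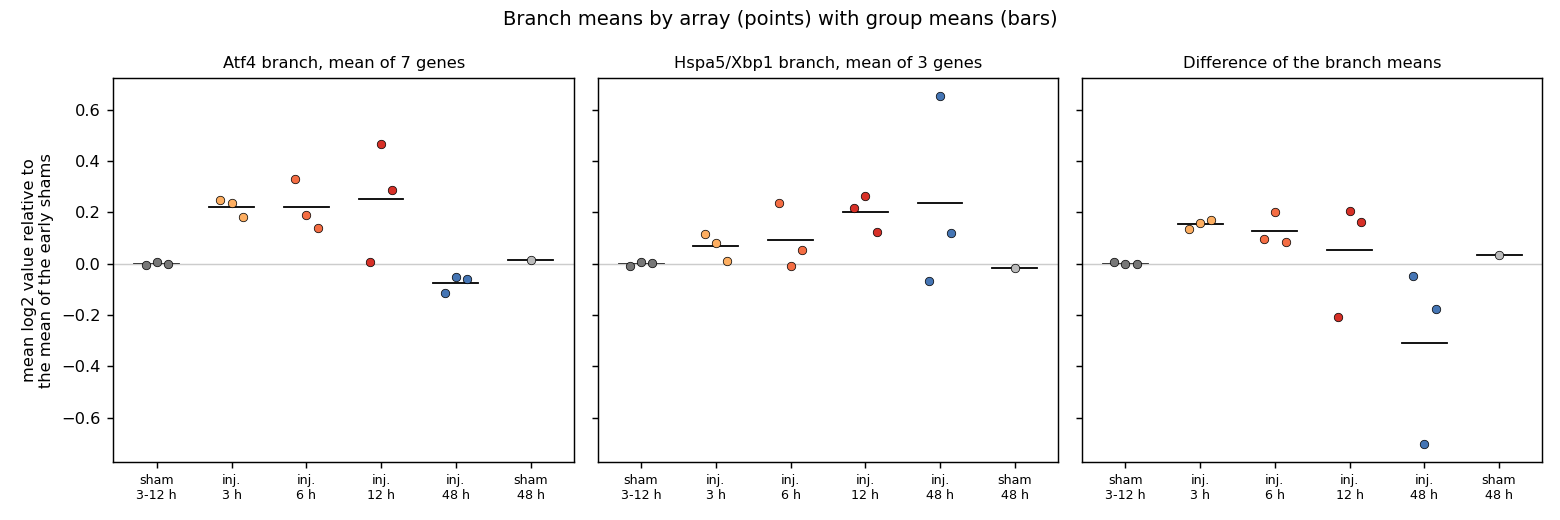
Mean log2 value of the 7 genes of the Atf4 branch, of the 3 genes of the Hspa5/Xbp1 branch, and the difference of both, relative to the early shams (vertical axis), for each array (points) by group (horizontal axis), with group means as bars. The Atf4 branch lies between 0.18 and 0.25 at 3 h and below 0 at 48 h, and injured 48 h replicate 2 has the highest Hspa5/Xbp1 mean, 0.65, and the lowest difference, -0.70.

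Wider lists of the pathway were chosen by known function, with earlier results of these data known. They show which neighbours of these genes changed in the same fit. Among the 11 measured sensors and eIF2 kinases, Eif2ak2 was the only gene called against the early shams. It encodes Pkr, the eIF2 kinase that responds to double-stranded RNA and is raised by interferon, and it was higher by 0.65 ± 0.13 at 6 h (adjusted p = 0.0132) and 0.93 ± 0.13 at 12 h (adjusted p = 0.000934). From 12 to 48 h it fell by 0.67 ± 0.13 (adjusted p = 0.00394). Among all genes, 1.98% were called higher at 6 h and 3.49% at 12 h, and 7.14% were called lower from 12 to 48 h. The list's median difference was between -0.07 and 0.13 over the 4 times.

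Of 26 further Atf4 and Chop targets, 1 was called higher at 3 h, 4 higher and 1 lower at 6 h, 4 higher and 1 lower at 12 h, and 3 higher at 48 h against the early shams. Of all genes, 0.485%, 1.98%, 3.49% and 6.37% were called higher at these times, and 0.682% and 1.38% lower at 6 and 12 h. Atf3, a stress-induced transcription factor downstream of Atf4 and of other signals, was higher by 2.28 ± 0.47 at 3 h (adjusted p = 0.048) and 2.52 ± 0.47 at 6 h (adjusted p = 0.00944). Gadd45a, a growth arrest and DNA damage gene, was higher by 1.46 ± 0.35 at 6 h and 1.43 ± 0.35 at 12 h, and Cebpb, a dimer partner of Atf4 and also a factor of inflammation, by 1.32 ± 0.25 and 1.25 ± 0.25. Nupr1, another stress factor, was lower by -1.41 ± 0.30 at 6 h (adjusted p = 0.0199). Atf3, Gadd45a and Cebpb are known to respond to several signals beside Atf4.

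The serine synthesis enzyme Psat1 was lower at 12 h (-0.34 ± 0.09, adjusted p = 0.0466) and higher at 48 h (0.31 ± 0.09, adjusted p = 0.0435). The next 4 genes were named after their values were seen, to complete the counts. Slc1a5, a glutamine transporter, was higher by 0.61 ± 0.14 at 6 h and 0.98 ± 0.14 at 12 h, and the mitochondrial serine enzyme Shmt2 by 0.40 ± 0.07 at 12 h. At 48 h the other 2 called genes were Phgdh, the enzyme before Psat1, at 0.68 ± 0.15 (adjusted p = 0.0146) and Slc7a11, the cystine transporter, at 0.42 ± 0.11 (adjusted p = 0.0252). Phgdh, Psat1 and Slc7a11 were thus higher, and Atf4 lower, at 48 h against the same early shams. Against the 48 h sham, where no gene at all was called, 0 of the 26 targets were called. The list median was then 0.055, against 0.12 from the early shams. Without single arrays the count at 6 h was 0 (injured 6 h replicate 2), 2 (replicate 3), 1 (3 h sham), 2 (6 h sham) and 1 (12 h sham), and that at 12 h was 2 without injured 12 h replicate 2 or the 3 h sham.

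Aminoacyl-tRNA synthetases, which load tRNAs with amino acids and of which many are Atf4 targets, were measured by 12 genes. At 12 h all 12 lay above the early shams with a median of 0.13, and 1 was called, the threonine enzyme Tars1 (0.44 ± 0.10, adjusted p = 0.0171). At 48 h the median was -0.11 and the cysteine enzyme Cars1 was called lower (-0.38 ± 0.08, adjusted p = 0.0125). Among all genes, 3.49% were called higher at 12 h and 3.32% lower at 48 h. From 12 to 48 h, 7 of the 12 were called lower, with a list median of -0.31, where 7.14% of all genes were called lower and the median of all genes was 0.001. Tars1 fell by 0.41 ± 0.10 and Cars1 by 0.43 ± 0.08. The count was 4 without injured 12 h replicate 2 or injured 48 h replicate 1, and it was 0 with only these 2 groups in the fit. In the 48 h sham the list mean was -0.13, within the range of the injured 48 h arrays (-0.14 to -0.05).

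Several genes of protein folding in the ER were higher at 48 h than in the early shams. Of 20 chaperones and foldases beside Hspa5, 0 were called at 3, 6 and 12 h. At these times 1, 4 and 5 had an unadjusted limma p under 0.05, as did 1358, 2029 and 2910 of all 14218 genes. At 48 h 8 were called higher, against 6.37% of all genes, with a list median of 0.33. They included Sdf2l1, a partner of BiP (1.43 ± 0.29, adjusted p = 0.0091), the disulfide isomerase Pdia4 (0.84 ± 0.22, adjusted p = 0.0295) and the ER stress gene Creld2 (0.78 ± 0.22, adjusted p = 0.043). From 12 to 48 h, 2 of the 20 were called higher, against 8.19% of all genes. Against the 48 h sham none was called, with a list median of 0.18. In that comparison 1 of the 20 had an unadjusted limma p under 0.05, as did 1061 of all 14218 genes. The list mean in the 48 h sham was 0.26 above the early shams, and the 3 injured 48 h arrays had 0.31, 0.65 and 0.18, so that the 48 h sham lay within the injured range. The count of 8 was 3 without injured 48 h replicate 2, 4 without replicate 1, and 3 without the 3 h, 6 h or 12 h sham.

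Of 16 genes of ER-associated degradation none was called higher against the early shams, and 1 was called lower. Ufd1, which extracts proteins from the ER membrane, was lower at 48 h (-0.41 ± 0.09, adjusted p = 0.0131). Of 20 genes of ER translocation and transport, Sec23b, a coat protein of vesicles that leave the ER, was higher at 6 h (0.61 ± 0.13), 12 h (0.67 ± 0.13) and 48 h (0.58 ± 0.13). Sec61a1, the core of the translocation channel, was higher at 48 h (0.30 ± 0.09, adjusted p = 0.0415). Among all genes, 1.98%, 3.49% and 6.37% were called higher at 6, 12 and 48 h, and 3.32% lower at 48 h. Against the 48 h sham, where no gene was called, the list medians were 0.04 for degradation and 0.09 for translocation and transport. From the early shams they were -0.10 and 0.21 at 48 h.

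**Figure D4:**
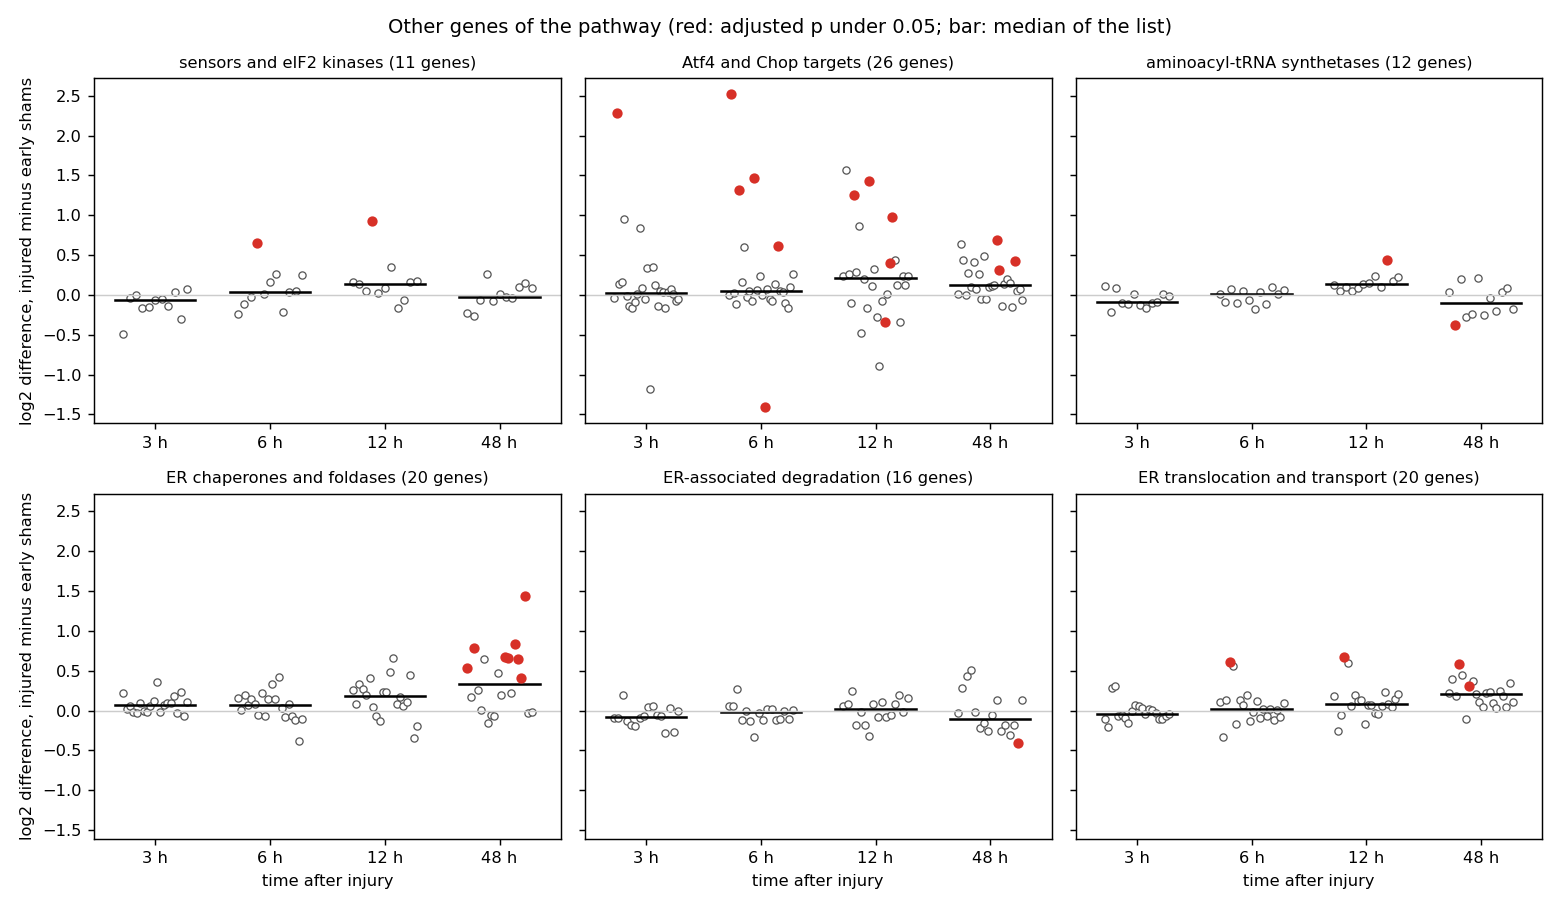
Log2 differences between injured cortex and the early shams (vertical axis) at 3, 6, 12 and 48 h (horizontal axis) for the measured genes of 6 pathway lists; points are genes, red points have a limma adjusted p under 0.05, and bars are list medians. The 8 called chaperones and foldases stand at 48 h, and Atf3 is the highest point at 3 h (2.28) and 6 h (2.52).

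Markers of other cell types moved over the same hours, each list given as its mean relative to the early shams. Of 6 neutrophil markers, 3 were higher at 6 h and 4 at 12 h, and the list mean was between 1.57 and 3.23 in the injured arrays of 6 and 12 h and between 0.25 and 1.70 at 48 h. At 3 h, when the difference of Ppp1r15a was largest, no neutrophil marker was called and the list mean was 0.05. Of 3 erythrocyte markers 1, Hbb, was called higher at 3, 6 and 12 h. The list mean was 1.26, 1.44 and 0.84 at these times, at which Ppp1r15a was high, and 0.01 at 48 h. The median difference of these 3 genes was smaller, 0.36 at 3 h, 0.44 at 6 h and 0.02 at 12 h. Of 6 endothelial markers 4 were lower and 1 higher at 6 h and 2 lower at 12 h. At 6 h the list mean was -0.88 and the list median -1.30. Of 5 choroid plexus markers none was called, and the list mean was 1.10 at 3 h and 0.66 at 12 h, with medians of 0.17 and 0.20. Of 7 oligodendrocyte markers none was called against the early shams, but all 7 lay above them at 3 and 6 h. The list mean was 0.37 at 3 h, 0.35 at 6 h and 0.03 at 12 h, with medians of 0.28, 0.32 and 0.05. At 3 and 6 h 4 of the 7 had an unadjusted limma p under 0.05, as did 1358 and 2029 of all 14218 genes. Of 6 microglial markers, 3 were lower at 6 and 12 h and 4 higher at 48 h, and of 7 monocyte and macrophage markers 3 were higher at 48 h. Injured 48 h replicate 2, the array with the highest Hspa5 and Xbp1 values, also had the highest monocyte mean of the 48 h arrays (2.12, against 1.20 and 0.59), the highest microglial mean (1.44, against 0.86 and 0.98) and the highest neutrophil mean (1.70, against 0.34 and 0.25). Injured 12 h replicate 2, with the highest Atf4 and Ddit3 values, had the highest neutrophil (3.23) and monocyte (1.57) means of its group. Of 7 markers of meninges and fibroblasts, 1 was lower at 3 h, 3 at 6 h and 4 at 12 h, and the list mean of the 48 h sham was 0.76 above the early shams. Of 8 astrocyte markers 1 was higher and 2 were lower at 12 h, and 3 were higher at 48 h. The shares of all genes called higher were 0.485%, 1.98%, 3.49% and 6.37% at 3, 6, 12 and 48 h. Those called lower were 0.0985%, 0.682%, 1.38% and 3.32%. The part of these cells in the values of the 10 genes was not tested.

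Genes whose values followed a branch mean most closely over the 16 arrays were found by Pearson's r, as a description. For the Atf4 branch they were Mafk (0.93), Slc16a6 (0.93), Cflar (0.92), Gadd45b (0.92) and Rlim (0.91). Of these, Gadd45b is a stress gene of the family of Gadd45a. For the Hspa5/Xbp1 branch they were Pxn (0.84), Ehd4 (0.83), Met (0.81), Dnajb11 (0.81) and Stip1 (0.80). Dnajb11 encodes an ER co-chaperone of BiP and Stip1 a co-chaperone of the cytosol. By itself, Ppp1r15a was followed most closely by Csrnp1 (0.91) and by the histone demethylase Kdm6b (0.89), and Atf4 by Nfkbib (0.94), Slc66a2 (0.93), Rnf138 (0.92) and the sterol synthesis genes Mvd (0.92) and Msmo1 (0.92). The closest genes to Atf4 and to Ppp1r15a were looked up after the values had been seen.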

How the data were processed

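RNA of rat lateral cortex was hybridised to Affymetrix whole-genome rat arrays, 16 in all. The deposited values are log intensities, made by the authors with RMA per the submitters' processing notes. The base of the logarithm is not stated, and the deposited values were read as log2. The median of each of the 31099 probe sets over the arrays is 0 in that table, and values run from -5.64 to 5.98. Quantile normalization within RMA makes array totals alike, so a change shared by most genes would not be seen. Arrays have no read depth, so precision depends on their number.

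Of the probe sets, 21268 are listed with a gene. The 20832 with 1 symbol were used, 20764 of them with symbols updated by gene identifier, and 436 that carry several were not used. Probe sets of a gene were averaged, giving 14218 genes. No 2 arrays were alike (closest pair 0.202 root mean square).

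A linear model of 6 groups with 10 residual degrees of freedom was fitted in limma 3.58.1 (R 4.3.3), with moderated tests, Benjamini-Hochberg adjustment over all genes and a threshold of 0.05. For the lone 48 h sham, the spread of the other groups was assumed. The fit was tested on simulated data. Injured arrays carry replicate numbers 1 to 3 but differ in animal code. Same-numbered arrays had correlations of deviations of -0.19 to 0.26, above 0.1 in 3 of 18 pairs. Between 12 and 48 h the same-numbered pairs had 0.09, 0.19 and 0.19, and the differently numbered pairs -0.17 to -0.007. These values do not settle whether the numbers pair the arrays, so the block was kept as an alternative.

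The genes, the wider lists and the markers were chosen with earlier results of these data known. All 10 genes are named. Of each wider list the called genes with the largest changes against shams are named, up to 3 higher and 2 lower. Alternatives were each probe set by itself, median and quantile normalization, only the compared groups, robust moderation, other shams, each array left out, and the replicate number as a block. The alternative with quantile normalization acted on the centred deposited values and made the spread of all arrays alike. Promoter sequences and gene positions are from RefSeq tables of GRCr8.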

Additional observations from a re-analysis of the deposited data

Results flagged for a closer look

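The injury effect at 48 h differed from that at 12 h for Atf4 and Ppp1r15a. With the early shams as control at both times, the effect at 48 h minus that at 12 h was -0.81 ± 0.11 for Atf4 (limma adjusted p = 0.000425) and -0.87 ± 0.26 for Ppp1r15a (adjusted p = 0.0389). The shams cancel in this difference, so it is the same test as the step from 12 to 48 h in injured arrays. All 3 arrays of 48 h lay below all 3 of 12 h for both genes.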

How the results depend on the processing

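Under the alternatives, 125 of 180 values of the main counts and branch differences stayed within 1.5 times of the count or 1 SD of the value, and 55 moved. The number of the 10 genes called, 0 at 3 h, 0 at 6 h, 2 at 12 h, 1 at 48 h against the early shams and 2 from 12 to 48 h, became 1, 2, 2, 2 and 1 with quantile normalization. With only the compared groups in the fit, which leaves fewer arrays, it was 2 at 6 h, 0 at 12 h and 1 from 12 to 48 h. With all 4 shams as control it was 1 at 6 h and 1 at 48 h, where the 48 h sham alone gave 0. At 12 h it was 1 with each probe set by itself, 1 with robust moderation and 0 with the single 12 h sham. Leaving out arrays in turn gave 0 to 2 at 12 h, 0 to 2 at 48 h against the early shams and 1 to 3 from 12 to 48 h, and 1 in that step without both arrays of wide spread, an alternative added after seeing the data. With the replicate number as a block, 1 gene was called from 12 to 48 h in place of 2: Ppp1r15a had -0.87 (adjusted p = 0.066), and the block changed no other call.

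The branch difference was 0.154, 0.126, 0.0521 and -0.311 at 3, 6, 12 and 48 h. At 3 h it was -0.0961 with medians, 0.0979 over probe sets, 0.197 with quantile normalization, 0.0168 without Herpud1 and 0.00648 without Ppp1r15a. At 6 h it was -0.109 with medians, -0.0937 without Herpud1 and -0.00815 without Ppp1r15a, and at 12 h -0.274 with medians and -0.2002 without Herpud1. Leaving out arrays gave 0.146 to 0.163 at 3 h, 0.0891 to 0.148 at 6 h, -0.0241 to 0.183 at 12 h and -0.441 to -0.114 at 48 h. The cause of these shifts was not tested. With only the compared groups, the number called was 1 chaperone in place of 8 at 48 h, 2 Atf4 and Chop targets in place of 4 at 12 h and 0 synthetases in place of 7 from 12 to 48 h; leaving out arrays gave 3 to 10, 2 to 5 and 4 to 7, and 0 to 3 targets at 6 h in place of 4.

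Of 984 values of single members under an alternative, 31 lost a call, 14 gained one and 0 changed sign while called, and 79 uncalled values changed sign. Over all genes the counts called ranged from 9 to 178 at 3 h (83 as reported), 70 to 850 at 6 h (379), 77 to 1230 at 12 h (692), 0 to 963 at 48 h against the 48 h sham (0), 482 to 2054 against the early shams (1377), 39 to 686 from 3 to 6 h (170), 0 to 45 from 6 to 12 h (2) and 388 to 2442 from 12 to 48 h (2180). A filter on dim probe sets was not run, since centred values hold no level, and the lone 48 h sham could not be left out.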
